A study of Macaca mulatta with 6 samples.

Results

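miR-193a, miR-193b and miR-365 are made from 4 hairpin precursors that lie in pairs at 2 places in the macaque genome, mir-193b with mir-365-1 on chromosome 20 and mir-193a with mir-365-2 on chromosome 16. All mature arms of these names were taken from the table of mature miRNA counts, which gave 7 of its 701 rows. The 4 precursor genes of the same names, of 3083 genes in the second table of small RNA counts, served as a second count of the same libraries. The group was chosen by name with measured values in view: miR-365-3p and miR-193a-3p were already known to be among the 10 of 433 tested miRNAs (2.31%) that had lower values after gonadotropin and an unadjusted p under 0.05. Their difference between the groups is therefore given as a description, and no test is drawn from it.

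The libraries came from whole right testis of 6 juvenile wild type rhesus monkeys. Vehicle was infused for 48 h in 3 animals (numbers 7, 9 and 11, aged 24, 14 and 15 months), and pulses of follicle-stimulating hormone with luteinizing hormone were infused for 48 h in the other 3 (numbers 8, 10 and 12, aged 22, 14 and 15 months). The series asks whether gonadotropins, as at the onset of puberty, change miRNAs of the testis. Libraries are called by treatment and animal number.

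A miRNA precursor is a short hairpin from which a 5p and a 3p strand, its arms, can be cut. Usually 1 of these is kept in the Argonaute protein, where it represses messenger RNAs that pair with its seed near the 5′ end. miR-193a-3p and miR-193b-3p have the same seed and are known to repress KIT, the receptor tyrosine kinase of differentiating spermatogonia and Leydig cells, as well as the protease urokinase and, for miR-193b, cyclin D1. miR-365-3p has a different seed, and cyclin D1 and BCL2 are among its reported targets. The miR-193b and miR-365 cluster is best known from brown fat and muscle differentiation.

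On rheMac8, the build of the small RNA table, mir-193b (ENSMMUG00000027108) lies at chr20:14430830-14430912 and mir-365-1 (ENSMMUG00000026888) at chr20:14436190-14436276, both on the plus strand with 5277 bases between them. mir-193a (ENSMMUG00000032853) lies at chr16:25651828-25651912 and mir-365-2 (ENSMMUG00000026939) at chr16:25667229-25667339, also on the plus strand and 15316 bases apart. The files annotate all 4 as miRNA genes and give no host gene. On rheMac2, the build of the mature miRNA table, the gaps were 5277 and 15315 bases. The authors' deposited table lists both mir-365-1 and mir-365-2 as the source of miR-365-3p, so this arm cannot be assigned to either place.

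Total counts ran from 1100190 to 1747355 per library in the mature table and, in the table of small RNA genes, between 2146412 and 3170784. Levels are CPM, counts relative to the size of the library, after TMM scaling, unless counts are named. Vehicle 7 stood apart from the rest: on the first principal component of the mature table (47.5% of variance) it lay at -14.77, and the other libraries lay between -2.54 and 6.90. It was also the oldest animal of the vehicle group. Of the testis-rich miRNAs, 15 arms of miR-383, of miR-506 to miR-510 and of the miR-513 and miR-514 families were in the table and passed the filter, with a summed level of 63460 to 76782 CPM in vehicle and 54062 to 73713 CPM in gonadotropin libraries. The listed testis marker miR-202 was not analysed here. These are bulk libraries, in which fewer cells of a type and less RNA per cell cannot be told apart.

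miR-365-3p was the most abundant member and ranked 129 of 433 tested miRNAs by mean level. Vehicle 7, 9 and 11 held 1205, 272 and 285 CPM, from 1512, 361 and 371 counts. In gonadotropin 8, 10 and 12 it was 127, 297 and 169 CPM, from 158, 554 and 255 counts. Vehicle 7 was by far the highest library, gonadotropin 10 lay above vehicle 9 and 11, and the groups overlapped. The vehicle mean was 587 ± 535 CPM and the gonadotropin mean 198 ± 88.5 CPM (SD, n = 3 each). The fitted log2 fold change was -1.57 (SE 0.61). Without vehicle 7 it was -0.48 (SE 0.39).

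miR-193a-3p, the KIT-directed arm of the chromosome 16 cluster, had a similar order of libraries. It was at 182, 56.5 and 97.6 CPM in vehicle 7, 9 and 11 and at 39.4, 83.1 and 37.2 CPM in gonadotropin 8, 10 and 12. Vehicle 7 was again the highest and gonadotropin 10 lay above vehicle 9, so the groups overlapped. The log2 fold change was -1.06 (SE 0.47), and -0.52 (SE 0.46) without vehicle 7.

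The other arm of the same precursor, miR-193a-5p, did not follow this order. Vehicle 7, 9 and 11 held 45.4, 88.9 and 56.1 CPM of it, and gonadotropin 8, 10 and 12 held 38.6, 91.7 and 34.5 CPM. Here vehicle 7 was the lowest of the vehicle libraries, and the 14-month-old animals of both groups, vehicle 9 and gonadotropin 10, were the highest. The log2 fold change was -0.20 (SE 0.45), and it turned to 0.025 with library totals, to 0.19 without vehicle 9 and to 0.06 without gonadotropin 12.

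miR-193b-3p was the tested member with the least spread. It was at 93.2, 70.1 and 70.7 CPM in vehicle 7, 9 and 11 and at 59.5, 42.9 and 40.5 CPM in gonadotropin 8, 10 and 12. With TMM scaling every gonadotropin library lay below every vehicle library, which held for 19 of 433 tested miRNAs (4.39%) in this direction. With library totals this was so for 5 of 433 (1.15%) and not for miR-193b-3p, since gonadotropin 8 (67.3 CPM) then lay just above vehicle 9 (66.3 CPM). The means were 78.0 ± 13.2 and 47.6 ± 10.4 CPM (SD, n = 3 each). The log2 fold change was -0.71 (SE 0.35) and ran from -0.91 to -0.45 over the 11 alternatives. Without vehicle 7 it was -0.56 (SE 0.36), and without both older animals -0.78 (SE 0.36).

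The remaining arms were scarce and did not pass the filter on low counts. miR-193b-5p had 4, 16 and 8 counts in vehicle 7, 9 and 11 and 6, 10 and 8 in gonadotropin 8, 10 and 12. miR-365-1-5p had 1 count in all, in vehicle 11, and miR-365-2-5p had 1 count each in gonadotropin 8 and 10. Where a library held 0 counts, a level of up to 1.72 to 2.73 CPM remains possible (3 counts of the library total).

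**Figure D1:**
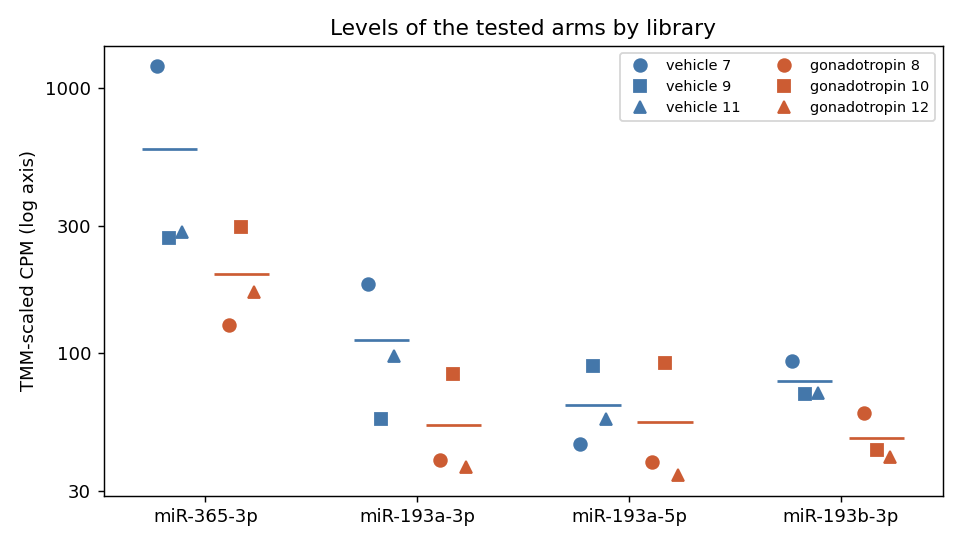
TMM-scaled CPM (log axis) of the 4 tested arms, one symbol per library, with vehicle in blue, gonadotropin in orange, the same symbol for animals of like age, and lines at the group means. Vehicle 7 is at 1205 CPM for miR-365-3p, above the 127 to 297 CPM of the other libraries, and with this scaling only the miR-193b-3p groups do not overlap (with library totals gonadotropin 8, at 67.3 CPM, lies above vehicle 9, at 66.3 CPM).

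Of the 4 tested members, 4 had lower values with gonadotropin, and 234 of 433 miRNAs (54.0%) did so. Their median log2 fold change was -0.89, and that of all tested miRNAs was -0.06. This count and median include miR-365-3p and miR-193a-3p, which were known to be lower when the group was chosen. The remaining tested arms, miR-193b-3p and miR-193a-5p, were at -0.71 and -0.20. None of the 4 tested members passed the edgeR quasi-likelihood test over all miRNAs, where 1 of 433 did (0.231%), and 0 passed with DESeq2. At an unadjusted p under 0.05 there were 2 in either tool, the arms that led to the choice of this group, beside 26 of 433 miRNAs with edgeR (6%) and 29 with DESeq2 (6.70%). In the authors' deposited table, from an edgeR exact test, the log2 fold change of miR-365-3p was -1.45 (adjusted p = 0.362) and that of miR-193a-3p -0.97 (0.753). miR-193b-3p had -0.64 (0.853) and miR-193a-5p -0.14 (1) in the authors' deposited table. The authors' table has 566 rows, 3 of them with an adjusted p under 0.05.

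The scaling between libraries moved all of these values. With library totals in place of TMM the median of all tested miRNAs rose from -0.06 to 0.19, and the members moved with it, miR-365-3p to -1.26, miR-193a-3p to -0.79 and miR-193b-3p to -0.45.

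**Figure D2:**
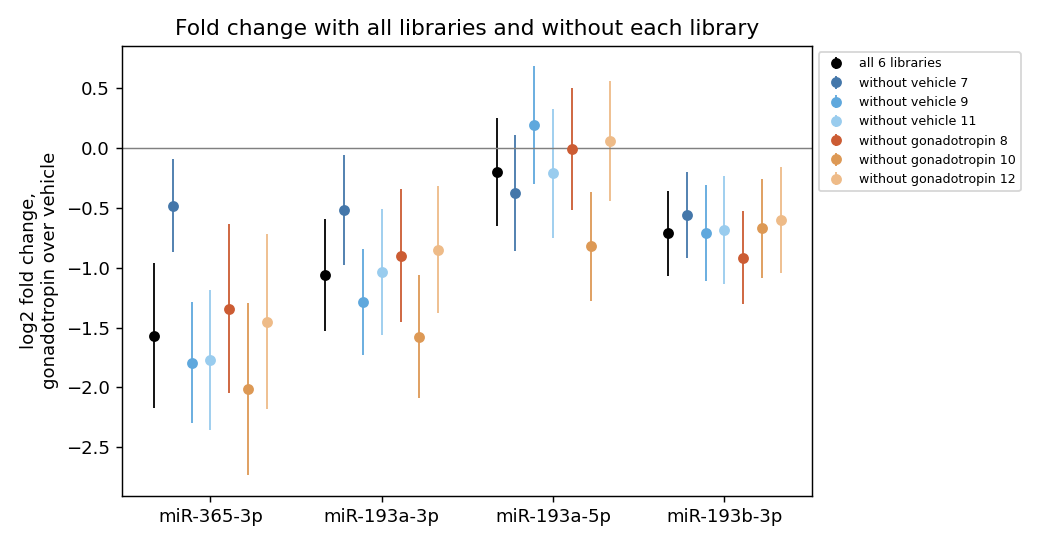
Log2 fold change (gonadotropin over vehicle) of the 4 tested arms with all 6 libraries (black) and without each library in turn, with bars of 1 SE. miR-365-3p goes from -1.57 to -0.48 without vehicle 7, whereas miR-193b-3p stays between -0.91 and -0.56.

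By the ages in the labels, the animals were set in pairs of 14 months, of 15 months and, less closely, of 24 months (vehicle 7) and 22 months (gonadotropin 8). miR-365-3p differed by -3.24 (log2) between the older animals, gonadotropin 8 against vehicle 7. Between the 14-month-old animals the difference was 0.13, and between the 15-month-old animals -0.75. miR-193a-3p gave -2.20, 0.56 and -1.39 in the same order, so both arms were higher with gonadotropin in the 14-month-old pair. miR-193b-3p gave -0.65, -0.71 and -0.80, and with library totals -0.22, -0.53 and -0.66, so it was lower in each pair but by less even amounts. miR-193a-5p gave -0.23, 0.05 and -0.70. Without the older animals the log2 fold change of miR-365-3p was -0.28 (SE 0.37), a value from 2 libraries against 2.

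The excess of miR-365-3p in vehicle 7 was large compared with other miRNAs. It was 4.05 times as high there as in the next highest library, the highest such ratio of the 433 tested miRNAs, and 4.32 times the mean of vehicle 9 and 11. With library totals it was 3.19 times the next highest library, the second highest ratio of the 433. The ratio to the next highest library was 1.86 for miR-193a-3p (rank 24) and 1.32 for miR-193b-3p (rank 73), and miR-193a-5p was at 0.495 (rank 332). In 133 of the 433 miRNAs (30.7%; 82, or 18.9%, with library totals) vehicle 7 was the highest library, and in 19 (4.39%) it was at least 2 times as high as any other. The within-group SD of log2 CPM was 0.97 for miR-365-3p, above that of 94.5% of tested miRNAs, and 0.26 for miR-193b-3p, above that of 14.8%.

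**Figure D3:**
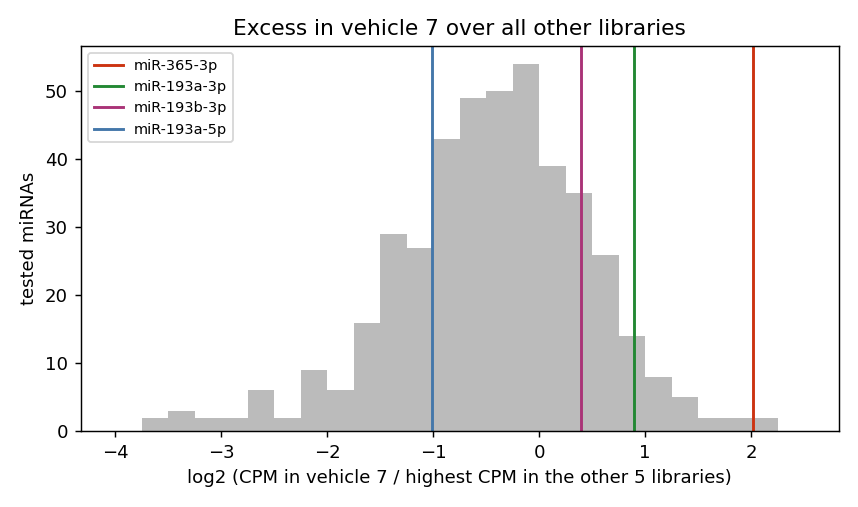
Histogram of the log2 ratio of the CPM in vehicle 7 to the highest CPM in the other 5 libraries over 433 tested miRNAs, with lines at the 4 tested arms. miR-365-3p stands at the right end (ratio 4.05), and miR-193a-5p lies left of 0 (ratio 0.495).

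Markers of other cells were measured in the same libraries as sums over their arms. Smooth muscle miRNAs (4 arms of miR-143 and miR-145) were at 23462 CPM in vehicle 7 and at 21435 to 50377 CPM in the others, lowest in gonadotropin 12. The blood cell sum (9 arms) was lowest in vehicle 7, at 5137 CPM, with 6699 to 11062 CPM in the others. Its most abundant arm was miR-451, at 3947 CPM in vehicle 7. Alone of the tested arms of this list, miR-144 was highest in vehicle 7, at 213 CPM. The endothelial miR-126 was at 5629, 9160 and 5532 CPM in vehicle 7, 9 and 11. In the gonadotropin libraries it was at 6867 to 11258 CPM, so the groups overlapped. The epithelial sum (9 arms of the miR-200 family, miR-203 and miR-205) was highest in vehicle 7, at 240 CPM, beside 95.4 to 174 CPM elsewhere. Of its tested arms, miR-200a-3p, miR-200c-3p, miR-141-3p and miR-205 were highest in vehicle 7, but miR-203 and miR-429-3p were not. The striated muscle sum (7 arms, 2 of them tested) was also highest in vehicle 7, at 111 CPM, with 59.5 to 87.6 CPM in the others. Of the tested arms, miR-499-5p was highest in vehicle 7 (66.1 CPM). The other, miR-1-3p, was not, with 31.1 CPM there and 40.7 CPM in vehicle 9. The sum over miRNAs of pluripotent and meiotic germ cells (18 arms, 8 of them tested) was highest in vehicle 7 as well, at 801 CPM, with 391 to 726 CPM elsewhere. Its most abundant arms were miR-372-3p (473 CPM in vehicle 7) and miR-373 (159 CPM). Of the tested arms, these, miR-302b and miR-449a-5p were highest in vehicle 7, but miR-302d, miR-371-3p, miR-371-5p and miR-34c-5p were not. With library totals the striated muscle sum was highest in gonadotropin 12 and the germ cell sum in gonadotropin 8. The sum of miR-122, miR-192 and miR-194 (4 arms) was 101 to 166 CPM. No arm of these lists was at 0 in all libraries. With library totals vehicle 7 was the lowest library for the smooth muscle, blood and endothelial sums. It was then also the lowest for the testis-rich sum (53316 CPM, beside 57711 to 79238 CPM in the others). The same held for the lists of KIT-directed and brown fat miRNAs given below. The part of these cells in the values of miR-365-3p was not tested.

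Levels of the arms were compared within libraries, as the log2 ratio of counts (with 1 count added), which the scaling between libraries does not change. The mature arms are of similar length, but arms can be recovered with unequal efficiency, so ratios are those of counts. Of 8 pairs, 6 passed an exact two-sided sign-flip permutation test over the 6 libraries after Benjamini-Hochberg adjustment, each at the smallest p that 6 libraries allow (p = 0.03125, adjusted p = 0.0417). For 2 of these, miR-365-3p against miR-365-1-5p and miR-365-2-5p, the 5p arm had 0 counts in most libraries, so their outcome shows little beyond its scarcity. miR-365-3p exceeded miR-193a-3p in 6 of 6 libraries, by 2.03 ± 0.44 (log2, SD, n = 6), or 4.09 times. It exceeded miR-193b-3p in 6 of 6 libraries as well, by 2.26 ± 0.88, or 4.77 times. In the vehicle libraries alone these log2 ratios were 2.17 and 2.54, and over miR-193b-3p it was 1.97 without vehicle 7. Since miR-365-3p can come from both places, its count was also set against the sum of both miR-193 3p arms, of which it was 1.28 (gonadotropin 8) to 4.38 times (vehicle 7), with a mean log2 ratio of 1.12 ± 0.59 (SD, n = 6, not tested).

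Neither of the miR-193 arms with the same seed was the higher in all libraries. miR-193a-3p was above miR-193b-3p in 3 libraries and below it in 3, with a mean log2 ratio of 0.23 ± 0.66 (range -0.58 to 0.96) and an adjusted p of 0.438 (exact sign-flip permutation test, n = 6). miR-193a-3p made 66.1% of the counts of both in vehicle 7 (95% Wilson interval 60.9 to 70.9%). miR-193a-3p also made 66.0% in gonadotropin 10 (59.7 to 71.7%) and 58.0% in vehicle 11 (51.4 to 64.3%). It made 44.6% in vehicle 9 (37.3 to 52.2%), 47.9% in gonadotropin 12 (39.0 to 56.8%) and 39.8% in gonadotropin 8 (31.6 to 48.7%). Libraries of both treatments lay on either side of equal shares, which only the intervals of vehicle 9 and gonadotropin 12 include.

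The precursors differed in how their arms were represented. For mir-193b the 3p arm prevailed in 6 of 6 libraries, by 3.25 ± 0.74 (log2, SD, n = 6, adjusted p = 0.0417, exact sign-flip permutation test), with 517 counts against 52 over all libraries. For the mir-365 precursors 3211 counts of the 3p arm stood against 1 and 2 counts of the 5p arms. These are ratios of 3211 (exact 95% interval 576 to 126867) and 1605.5 (444 to 13263). For mir-193a neither arm prevailed: the log2 ratio of 3p to 5p was 0.35 ± 0.92, positive in 4 libraries and negative in 2, with an adjusted p of 0.438 (exact sign-flip permutation test, n = 6). miR-193a-5p exceeded miR-193b-5p in 6 of 6 libraries, by 3.12 ± 0.53 (adjusted p = 0.0417, exact sign-flip permutation test, n = 6).

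The arm balance of mir-193a varied mainly among the vehicle libraries. The 3p arm made 80.0% of its counts in vehicle 7 (228 of 285, 95% Wilson interval 75.0 to 84.2%), 63.5% in vehicle 11 (56.6 to 69.9%) and 38.9% in vehicle 9 (32.3 to 45.9%). In gonadotropin 8, 10 and 12 it made 50.5%, 47.5% and 51.9%. These intervals cover counting error only, and those of the 3 vehicle libraries did not overlap one another. The mean log2 ratio of 3p to 5p was 0.71 ± 1.32 in vehicle and -0.002 ± 0.13 in gonadotropin libraries (SD, n = 3 each), so the difference of -0.71 lay within the spread of the vehicle libraries. It was -0.07 without vehicle 7 and -1.39 without vehicle 9. For mir-193b the 3p arm made 96.7%, 85.3% and 92.0% in vehicle 7, 9 and 11 and 92.5%, 88.9% and 88.4% in gonadotropin 8, 10 and 12. Vehicle 7 had the highest and vehicle 9 the lowest share of the 3p arm for both precursors, and for mir-193b only the intervals of these 2 libraries lay apart (91.8 to 98.7% and 77.5 to 90.8%).

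**Figure D4:**
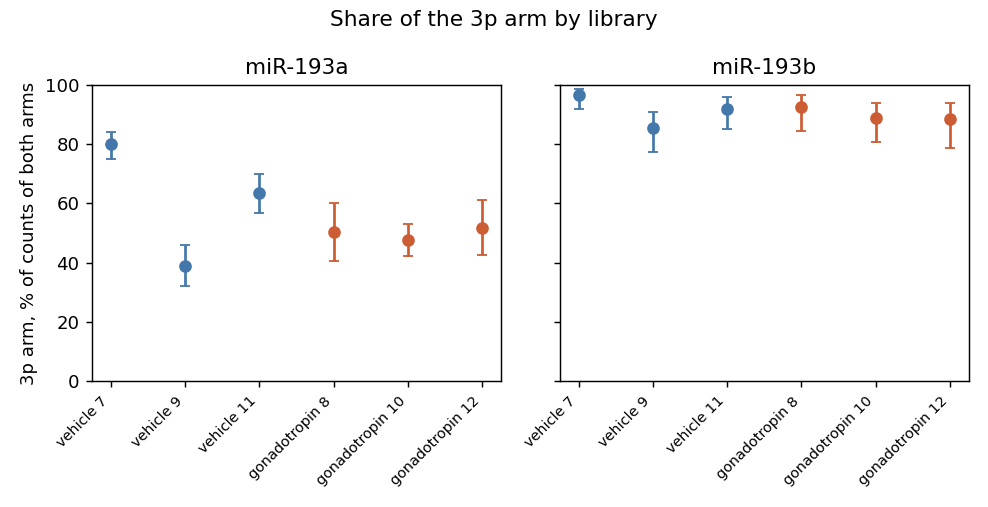
Share of the 3p arm in the counts of both arms of miR-193a (left) and miR-193b (right) in each library, with 95% Wilson intervals for counting error, vehicle in blue and gonadotropin in orange. For miR-193a the vehicle libraries spread from 38.9 to 80.0% and the gonadotropin libraries lie between 47.5 and 51.9%.

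The small RNA table, aligned to another build and counted by gene, gave like values. mir-193a held 1.06 to 1.12 times and mir-193b 1.01 to 1.12 times the summed counts of its arms. mir-365-1 and mir-365-2 had 1482 and 1484 counts in vehicle 7, 373 each in vehicle 11 and 258 each in gonadotropin 12, and differed by at most 6 counts in any library. Each held 0.978 to 1.03 times the count of miR-365-3p with the 5p arm of its own copy, so the copies cannot be told apart here and were read as 1 measurement rather than 2.

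The log2 fold change was -1.45 (SE 0.69) for mir-365-1 and -1.44 (SE 0.69) for mir-365-2. Both were at -0.26 and -0.25 without vehicle 7, and at 0.023 and 0.027 without both older animals. mir-193b was at 55.8, 39.5 and 44.8 CPM in vehicle 7, 9 and 11 and at 36.1, 32.3 and 27.0 CPM in gonadotropin 8, 10 and 12. Its log2 fold change was -0.55 (SE 0.37). Its groups did not overlap here either, as in 24 of 717 genes (3.35%) in this direction, but the gap between vehicle 9 and gonadotropin 8 was small. With library totals this gap was between 42.7 and 41.9 CPM, and 20 of 717 genes (2.79%) had such groups. mir-193a, which adds both arms, had 133, 69.5 and 86.0 CPM in vehicle 7, 9 and 11, while gonadotropin 8, 10 and 12 held 43.7, 113 and 44.4 CPM. The groups overlapped, and the log2 fold change was -0.52 (SE 0.50). None of the 4 genes passed the edgeR quasi-likelihood test over all genes, where 1 of 717 did (0.139%), and 0 passed with DESeq2. At an unadjusted p under 0.05 there were 0 with edgeR and 2, the mir-365 copies read as 1 measurement, with DESeq2, beside 32 (4.46%) and 38 (5.30%) of 717 genes.

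**Figure D5:**
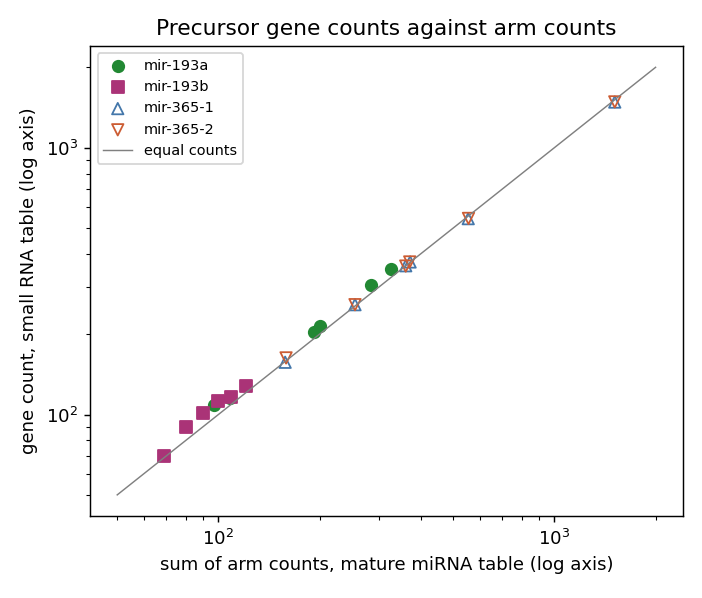
Count of each precursor gene in the small RNA table against the summed counts of its arms in the mature table, 6 libraries per gene, both axes logarithmic, with a line at equal counts. The mir-365-1 and mir-365-2 symbols lie on top of each other along the line, and mir-193a and mir-193b lie 1.01 to 1.12 times above it.

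Across the 6 libraries miR-365-3p and miR-193a-3p varied together (Pearson r = 0.93 of log2 CPM, and 0.87 over the 5 libraries without vehicle 7), although miR-365-3p can also come from the other cluster. miR-365-3p and miR-193b-3p gave r = 0.67 over 6 libraries and 0.20 without vehicle 7, and the arms of mir-193a gave 0.24 and 0.66. These values are descriptions over libraries that share the same scaling. miR-365-3p and miR-193a-3p were moreover both known to be lower after gonadotropin when the group was chosen. The miRNAs outside the group with the profile most like that of miR-365-3p were miR-30d-5p (r = 0.97), let-7a-5p (0.97) and miR-361-5p (0.96). Nearest to miR-193a-3p were miR-942-5p (0.98), miR-148a-5p (0.97) and miR-3938-3p (0.96). Nearest to miR-193b-3p were miR-181c-5p (0.93), miR-181c-3p (0.92) and miR-24-5p (0.85). Among the nearest, miR-361-5p was at 1018 CPM in vehicle 7 and 230 to 439 CPM in the others, and miR-181c-5p was at 845 to 1131 CPM in vehicle libraries, above the 548 to 637 CPM of the gonadotropin libraries.

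Other miRNAs reported to act on the same targets were taken from fixed lists without the miR-193 and miR-365 arms. Of the KIT-directed miRNAs (miR-221, miR-222, miR-34a, miR-494 and miR-218) 7 of 9 arms were tested, 5 with higher and 2 with lower values, with a median log2 fold change of 0.15 and 0.38 without vehicle 7. None of these arms passed the edgeR quasi-likelihood test. At an unadjusted p under 0.05, 2 of the 7 were higher, beside 16 of 433 miRNAs (3.70%): miR-221-3p (0.77, SE 0.35) and miR-494-3p (0.81, SE 0.36), and the most abundant, miR-34a-5p, was at 0.15 (SE 0.32). The summed level of this list was 2226 to 2433 CPM in vehicle and 2946 to 3087 CPM in gonadotropin libraries, 1 of 11 lists summed here whose sums did not overlap between the groups.

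Of miRNAs directed at cyclin D1, 25 of 28 arms were tested, 18 with lower and 7 with higher values. The median was -0.16, and 0.13 without vehicle 7. miR-503-5p, higher with gonadotropin, was the 1 arm that passed the edgeR quasi-likelihood test (1.87, SE 0.34, adjusted p = 0.0497). It passed in 5 of 11 alternatives and did not in 6, among them pairs by age and leaving out vehicle 7, with an adjusted p from 1.5e-04 to 0.690 (edgeR or DESeq2). The most abundant arms, miR-424-5p (-0.84, SE 0.42) and let-7a-5p (-0.66, SE 0.33), had lower values, as the miR-193 3p arms had. Without vehicle 7 these values were -0.42 for miR-424-5p and -0.36 for let-7a-5p. Of miRNAs tied to brown fat, 21 of 24 arms were tested, 12 with lower and 9 with higher values and a median of -0.08, which turned to 0.16 without vehicle 7. None of them passed the edgeR quasi-likelihood test, and 0 had an unadjusted p under 0.05. miR-26a-5p (-0.19, SE 0.30) and miR-30c-5p (-0.28, SE 0.28) were the most abundant of these.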

How the data were processed

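The authors deposited raw counts per mature miRNA (miRDeep2, rheMac2) and raw counts per small RNA gene (HTSeq, rheMac8), per the labels. Tools named in the submitters' processing notes are cutadapt 1.9.1, Bowtie 1.1.2 and HTSeq 0.6.1p1. The treatment of reads that map to several places is not given in the sources used here. Both Ion Torrent and Illumina library steps are named in the labels. Per the file headers, the authors' edgeR tables hold log2 fold changes, p-values and CPM; of these only log2 fold changes, adjusted p-values and positions were used.

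Counts were filtered with filterByExpr (minimum count 10, by group; 433 of 701 miRNAs and 717 of 3083 genes kept), scaled by TMM and fitted over each whole table by edgeR 4.0.16 (robust quasi-likelihood test, R 4.3.3), 3 gonadotropin against 3 vehicle libraries. P-values were adjusted by Benjamini-Hochberg over the table and called under 0.05. The approximate SE divides the size of the log2 fold change by the root of F. Reads carry no molecular identifiers here, so intervals cover counting error only. Within-library ratios were tested by flipping signs in all 64 ways. The scripts were tested on simulated data. Alternatives were library totals, DESeq2 1.42.0, no filter, pairs by age, another pseudocount and leaving out libraries; those without both older animals were added after the data were seen, as were values of lists and similar miRNAs without vehicle 7 and group overlap, age pairs and list sums with library totals. Members, lists and the naming rule (all members, the 3 most similar miRNAs for each 3p arm, the 2 most abundant arms per list) were chosen with earlier results of these data known. miR-221-3p, miR-503-5p and the arms of the marker lists beyond the 2 most abundant were named after their values were seen.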

Additional observations from a re-analysis of the deposited data

How the results depend on the processing

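Over the alternatives, the median log2 fold change of the 4 tested arms was -0.33 without both older animals (-0.89 with all libraries), and that of the 4 genes was 0.025 (mir-365-1 0.023, mir-365-2 0.027, mir-193a 0.033). miR-193a-5p turned to 0.025 with library totals, and without 1 library it ran from -0.82 (gonadotropin 10) to 0.19 (vehicle 9). miR-365-3p, miR-193a-3p, miR-193b-3p and mir-193b were below 0 in 11 of 11 alternatives. The alternatives reuse the same libraries, and miR-365-3p and miR-193a-3p were known to be lower when chosen, so a constant sign is a description. Without both older animals miR-365-3p was at -0.28 (SE 0.37) and miR-193a-3p at -0.38 (SE 0.50). The difference in arm ratio of mir-193b (-0.44) ran from -0.94 to 0.11 without 1 library, the latter without vehicle 7.

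The count of called miRNAs (1) was 2 with library totals, 3 with DESeq2, 0 with pairs by age and 0 without both older animals (16 and 10 at an unadjusted p under 0.05, edgeR), and 0 to 4 without 1 library: 0 without vehicle 7 or 11 or gonadotropin 8 or 12 (13 to 24 unadjusted) and 4 without vehicle 9. The single call, miR-503-5p, was lost where the count was 0. For small RNA genes (1) it was 3 with DESeq2, 3 without a filter, 0 with pairs by age (19 unadjusted, edgeR) and 0 to 1 without 1 library, with 0 without vehicle 11 or any gonadotropin library (20 to 29 unadjusted). No member was among the calls in any of these.

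With 5 libraries the smallest two-sided exact p is 0.0625, so no level difference could pass. Without 1 library the log2 ratio ran from 2.95 to 3.23 for miR-193a-5p over miR-193b-5p, from 2.98 to 3.40 for miR-193b-3p over miR-193b-5p, from 1.89 to 2.13 for miR-365-3p over miR-193a-3p, from 1.97 to 2.49 for miR-365-3p over miR-193b-3p, and from 8.09 to 8.74 and 7.89 to 8.74 for miR-365-3p over miR-365-1-5p and miR-365-2-5p. The ratios over the miR-365 5p arms are set largely by the added count: with 0.5 counts they were 9.41 and 9.14 in place of 8.51 and 8.34, and the pseudocount changed no call. Animals carry different numbers in the 2 groups, so no pairing by number was possible. The 5p arms of miR-365 and miR-193b were too scarce to pass the filter, so no difference between groups is given for them from the main fit. In the authors' deposited table miR-193b-5p had a log2 fold change of -0.41, from 52 counts over all libraries.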
